A study of Mus musculus with 8 samples.

Results

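The mitochondrial ribosomal protein genes were examined in bone marrow-derived macrophages (BMDMs) of Nudt21-cKO and WT mice. They were taken as every gene symbol of the Mrpl or Mrps series with a number and at most 1 letter after it. This rule, which uses no measured value, found 78 genes among the 21080 symbols in the deposited tables, of which 49 are Mrpl and 29 are Mrps genes. All 78 had a mean coverage of at least 0.5 over the 8 samples and were tested among 16284 genes.

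The 8 samples formed 4 groups of 2, from unstimulated (0 h) and IFNγ/LPS-stimulated (4 h) BMDMs of each genotype. Every sample pooled the cells of 2 mice. The mice were C57BL/6. Nudt21-cKO mice were Nudt21 fl/fl LysM Cre, with loxP sites around exons 2 and 3, and WT mice were sex-matched littermates with LysM Cre, so that every group carried the Cre, which is driven by the lysozyme M gene of myeloid cells. Cells were grown with M-CSF and stimulated with IFNγ at 50 ng/ml overnight and then LPS at 50 ng/ml for 4 h. Both agents were thus given together in the stimulated groups and their effects cannot be told apart. The age of the donor mice was not given in the sources used here. The treatment label is the same for all samples, and the 0 h samples were taken as unstimulated from their titles. The comparisons ask whether loss of Nudt21, a subunit of the complex that directs 3' end cleavage of pre-mRNA and binds UGUA, changes mRNA levels before and during inflammatory activation. The measured value was the coverage per gene, the mean number of reads over each base, so genes of different lengths can be compared.

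The mitochondrial ribosome (mitoribosome) translates the few proteins that are encoded by mitochondrial DNA, all of them subunits of the respiratory chain and ATP synthase. Its RNAs are made in the mitochondrion, but every one of its proteins is encoded in the nucleus, made in the cytosol and imported. Some of these proteins have counterparts in bacterial ribosomes, and the others are specific to mitochondria. The large subunit carries out peptide bond formation and the small subunit decodes the mRNA. In macrophages, activation by LPS and IFNγ is known for a shift from respiration towards glycolysis. Of the 78 genes, 51 encode proteins of the large subunit, since Mrps18a and Mrps30 encode large subunit proteins despite their names, and 26 encode small subunit proteins. Mrps36 has been assigned to the 2-oxoglutarate dehydrogenase complex and was kept because the rule includes it.

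Short motifs were found in some of the members' promoters, and 5 stretches are shown because their genes are among those named for a change below. Sequences were taken from RefSeq promoter windows on GRCm38.p6, each running from before to just after an annotated start site, and 69 of the 78 genes matched with 75 windows. Capitals mark the motif, read 5′ to 3′ on the gene's strand. CCGGAAG is the core bound by ETS-family factors such as GABP, here also read as its reverse complement CTTCCGG. CGCATGCG is the palindromic core bound by NRF1. AAGATGGCG is bound by YY1.
Mrpl33: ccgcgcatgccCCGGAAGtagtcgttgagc
Mrpl3: tgagaaacggaCCGGAAGtggcccggctgt
Mrpl52: caagatgtcggCTTCCGGttttcccggcag
Mrpl39: aaggagaggcgCGCATGCGcccccgcgtgg
Mrps27: ggtgcgctccAAGATGGCGgctcccatggt
The stretches lie at chr5:31613937-31613966 (+ strand) for Mrpl33, chr9:105053238-105053267 (+ strand) for Mrpl3, chr14:54426851-54426880 (+ strand) for Mrpl52, chr16:84735350-84735379 (- strand) for Mrpl39 and chr13:99344790-99344819 (+ strand) for Mrps27. All but that of Mrpl52 lie wholly or almost wholly inside the GENCODE gene models.

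Searched on both strands, CCGGAAG was found in 26 of the 75 windows (34.7%), against 8.86% of the windows of all genes and 11.6% of those of coding genes. AAGATGGCG was found in 8 windows (10.7%), against 1.40% of all windows and 1.83% of those of coding genes. CGCATGCG was present in 7 windows (9.33%), against 1.87% of all windows and 2.52% of those of coding genes. The CREB site TGACGTCA was found in 2 windows (2.67%), against 1.79% of all windows and 2.23% of those of coding genes. These are matches of letters and no measurement of binding.

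Summed coverage ranged from 14950347 to 17954882 per sample, and 14737 to 16486 genes had a value above 0. Coverage carries no read counts, so no counting interval was computed. The median log2 coverage of the tested genes was 7.22 to 7.38 in the 0 h samples and 5.64 to 6.14 in the 4 h samples. Levels are therefore given as scaled coverage, in which the samples of each time were brought to that time's median and which is not comparable between the times, and tests were run on log2(coverage + 0.1) with all samples brought to the same median. A fold change from the test is thus relative to the median gene, on the log2(coverage + 0.1) scale. Nudt21, the deleted gene, had a scaled coverage of 738 and 666 in WT and 159 and 161 in Nudt21-cKO samples at 0 h, and of 672 and 600.0 against 124 and 103 at 4 h, so that the labels and the deletion matched in every sample. The coverage is of the whole gene, and reads of the exons outside the deletion are included. The 7 macrophage markers (Cd68, Adgre1, Itgam, Csf1r, Lyz2, Fcgr1 and Mertk) summed to a scaled coverage of 121540.2 to 131828 at 0 h and 53862 to 62227 at 4 h. Single markers moved in opposite directions. At both times both Nudt21-cKO samples were above both WT samples for Cd68 and Lyz2, with 0 h means of 45671 and 775 in WT and 69083 and 1222 in Nudt21-cKO samples, and below them for Adgre1 (23048 in WT and 13606 in Nudt21-cKO), Csf1r (42874 and 27308), Fcgr1 (2551 and 1286) and Itgam (8592 and 6809.5). Their part in the results was not tested. The 3 T cell and 3 B cell markers each summed to at most 6.19, whereas the 5 neutrophil markers summed to 14873 to 26290.3, most of it from S100a8 and S100a9, with Ly6g at no more than 7.65. The neutrophil sum was 19090.1 to 20248 in WT and 21275 to 26290.3 in Nudt21-cKO samples at 0 h, and 18354 to 18636 against 14873 to 17776 at 4 h, so it was higher in Nudt21-cKO at 0 h and lower at 4 h. Most of the list did not share the difference at 0 h, where S100a8, Mpo and Elane overlapped between the genotypes and only S100a9 separated. At 4 h S100a8 overlapped, and S100a9, Mpo and Elane were lower in Nudt21-cKO. The part of the neutrophil sum in the results was not tested. The 3 dendritic cell markers summed to at most 63.6 and the 3 fibroblast markers to at most 106. The 5 stimulation markers (Nos2, Il6, Tnf, Il12b and Cxcl9) summed to 181 to 287 at 0 h and to 367916 to 543701 at 4 h. In bulk samples, fewer cells of a type and less RNA per cell cannot be told apart. The labels do not say that the samples of a group came from separate cultures beyond the pooled mice. The standard errors and p-values rest on the spread between the 2 samples of a group, pooled over the 4 groups and moderated over all tested genes.

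The mitoribosomal genes were expressed in every sample, over a range as wide as 29.1 to 3159 in deposited coverage in WT replicate 1 at 4 h. Mean deposited coverage over the 8 samples ran from 108 to 2339 with a median of 412, and the lowest, median and highest members lay at the 47.8, 69.0 and 93.0 percentiles of the tested genes. The highest member was Mrpl52, with a scaled coverage of 2439.5 and 1825 in WT and 1649 and 1758 in Nudt21-cKO samples at 0 h and 3886 and 2388 against 2277 and 2677 at 4 h. By the 8-sample mean Mrpl30 came next, at 1390.1 and 1380.0 in WT and 1439 and 1457 in Nudt21-cKO samples at 0 h and 824 and 838 against 983 and 1037 at 4 h. Mrpl24 followed, at 1779.8 and 1366 against 1599 and 1603 at 0 h and 744 and 667 against 603 and 660.4 at 4 h with the WT samples given first, as in all such pairs. The order of Mrpl24 and Mrpl30 differed between the samples, since WT replicate 2 at 0 h and all 4 samples at 4 h had more Mrpl30. Neither place held at each time, since in WT at 4 h Mrpl33, Mrpl3 and Mrps18c each lay above both in both samples. By the 8-sample mean the lowest members were Mrpl47, Mrpl41 and Mrpl50, with values of 108, 113 and 116 that lay closer together than the WT replicates of Mrpl41 at 0 h, at 176 and 134. These places did not hold in every group, since Mrps12 and Mrps11 had lower means than Mrpl41 and Mrpl50 in Nudt21-cKO at 0 h, and Mrps12 and Mrps35 had lower means than Mrpl50 in WT at 4 h. By class, the median of the members' 8-sample means was 436 for the 30 large subunit genes with a bacterial counterpart, 439 for the 21 that are specific to mitochondria, 374 for the 16 small subunit genes with a bacterial counterpart and 303 for the 10 specific to mitochondria.

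Among members with known roles, Mrpl12 encodes the stalk protein that also associates with the mitochondrial RNA polymerase, and its scaled coverage was 967 and 796 in WT and 862 and 896 in Nudt21-cKO samples at 0 h and 382 and 370.4 against 458 and 454 at 4 h. Mrpl11, at the base of the same stalk, was at 542 and 416 against 461 and 493 at 0 h and at 367 and 326 against 309 and 269.7 at 4 h. In both genes the WT and Nudt21-cKO samples overlapped at 0 h and separated at 4 h, with Nudt21-cKO above WT for Mrpl12 and below it for Mrpl11, and neither passed the test. The separation of Mrpl11 depended on the scaling, since its deposited coverage at 4 h overlapped, at 298 and 312 in WT and 355 and 301 in Nudt21-cKO samples. Mrpl45, which holds the mitoribosome to the inner membrane, was at 636 and 608 in WT and 603 and 575 in Nudt21-cKO samples at 0 h and at 282 and 266 against 256 and 279 at 4 h. Mrpl3, which reaches towards the catalytic centre, was at 933 and 904 against 1008 and 1005 at 0 h and at 1062 and 1045 against 905 and 852 at 4 h. The Nudt21-cKO samples of Mrpl3 were above both WT samples at 0 h and below both at 4 h. In deposited coverage they overlapped WT at 4 h, at 863 and 1002 in WT and 1039 and 953 in Nudt21-cKO.

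The S18 family has 3 members with different places in the mitoribosome. Mrps18a, in the large subunit, was at 1019.7 and 925 in WT and 928 and 1015 in Nudt21-cKO samples at 0 h and at 827 and 612 against 675 and 699 at 4 h. Mrps18b, in the small subunit, was at 929 and 763 against 768 and 754 at 0 h and at 509 and 529 against 356 and 404 at 4 h. Mrps18c, the small subunit member closest to bacterial S18, was at 976 and 606 against 1001 and 996 at 0 h and at 891 and 839 against 601 and 603 at 4 h. At 4 h the WT and Nudt21-cKO samples overlapped for Mrps18a, while both Nudt21-cKO samples were below both WT samples for Mrps18b and Mrps18c, and none of the 3 passed the test. In deposited coverage at 4 h Mrps18c stayed below WT and Mrps18b overlapped, at 414 and 507 in WT and 409 and 452 in Nudt21-cKO. Mrps18a lay above WT on that scale, at 673 and 587 against 775 and 782. Mrps30 was at 887 and 798 in WT and 763 and 684 in Nudt21-cKO samples at 0 h and at 554 and 431 against 394 and 439 at 4 h. Mrps36 was at 694 and 517 against 709 and 607 at 0 h and at 266 and 309 against 349.5 and 376 at 4 h.

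At 0 h, before stimulation, 1 of the 78 mitoribosomal genes, Mrpl1, was called between Nudt21-cKO and WT BMDMs. Their median log2 fold change was 0.04, the median of all tested genes was -0.00, and 45 of the 78 were above 0. By the test (limma with Benjamini-Hochberg adjustment over 16284 genes), 1 member rose, 0 fell and 77 were not called, while 2.79% of all tested genes rose and 2.17% fell. At an unadjusted p under 0.05, 6 members were higher and 2 lower, against 11.2% and 10.7% of all tested genes. By the rule of the study's methods (fold change above 1.5 and unadjusted p under 0.05), Mrpl50 was higher and Mrps34 lower, 1 member in each direction, with 6.39% and 6.21% of all tested genes called.

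Mrpl1 encodes the protein of the L1 stalk, which guides tRNA out of the ribosome. WT samples had a scaled coverage of 382 and 402 for it, and Nudt21-cKO samples 581 and 539, without overlap. This was a log2 fold change of 0.52 ± 0.09 (SE, n = 2 against 2), or 1.43-fold higher, with an adjusted p of 0.0463 by limma. The call was lost when any 1 of the 8 samples was left out and when the 4 samples of 0 h were fitted alone, and its adjusted p ranged from 0.0135 to 0.21 over the alternatives. Among the members with the most negative values, none of which was called, Mrps34, needed for a stable small subunit, was at 708 and 667 in WT and 377 and 462 in Nudt21-cKO samples. Its log2 fold change was -0.72 ± 0.28 with an adjusted p of 0.223 by limma, and its exons overlap those of Nme3 on the same strand and Mapk8ip3 on the opposite strand, so reads of the shared bases cannot be told apart. Mrpl38 was at 405 and 374 against 283 and 298, with a log2 fold change of -0.42 ± 0.11 and an adjusted p of 0.1 by limma. Mrps12, the decoding centre protein, was at 244 and 210.3 against 139 and 215, so that the groups overlapped.

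The 2 WT samples at 0 h differed from each other across the module. Replicate 1 was above replicate 2 in 71 of the 78 genes, against 44.5% of all tested genes, with a median log2 ratio of 0.24. In the Nudt21-cKO samples at 0 h, the WT samples at 4 h and the Nudt21-cKO samples at 4 h, 34, 50 and 26 of the 78 members were higher in the lower-numbered sample, against 48.3%, 55.1% and 39.7% of all tested genes. On the deposited scale the 4 counts were 72, 15, 17 and 32, against 46.3%, 27.3%, 28.9% and 46.8%. Without WT replicate 1 the median log2 fold change of Nudt21-cKO against WT at 0 h was 0.16, and without WT replicate 2 it was -0.07. The sign of the module's median at 0 h therefore rested on which WT sample was used.

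**Figure D1:**
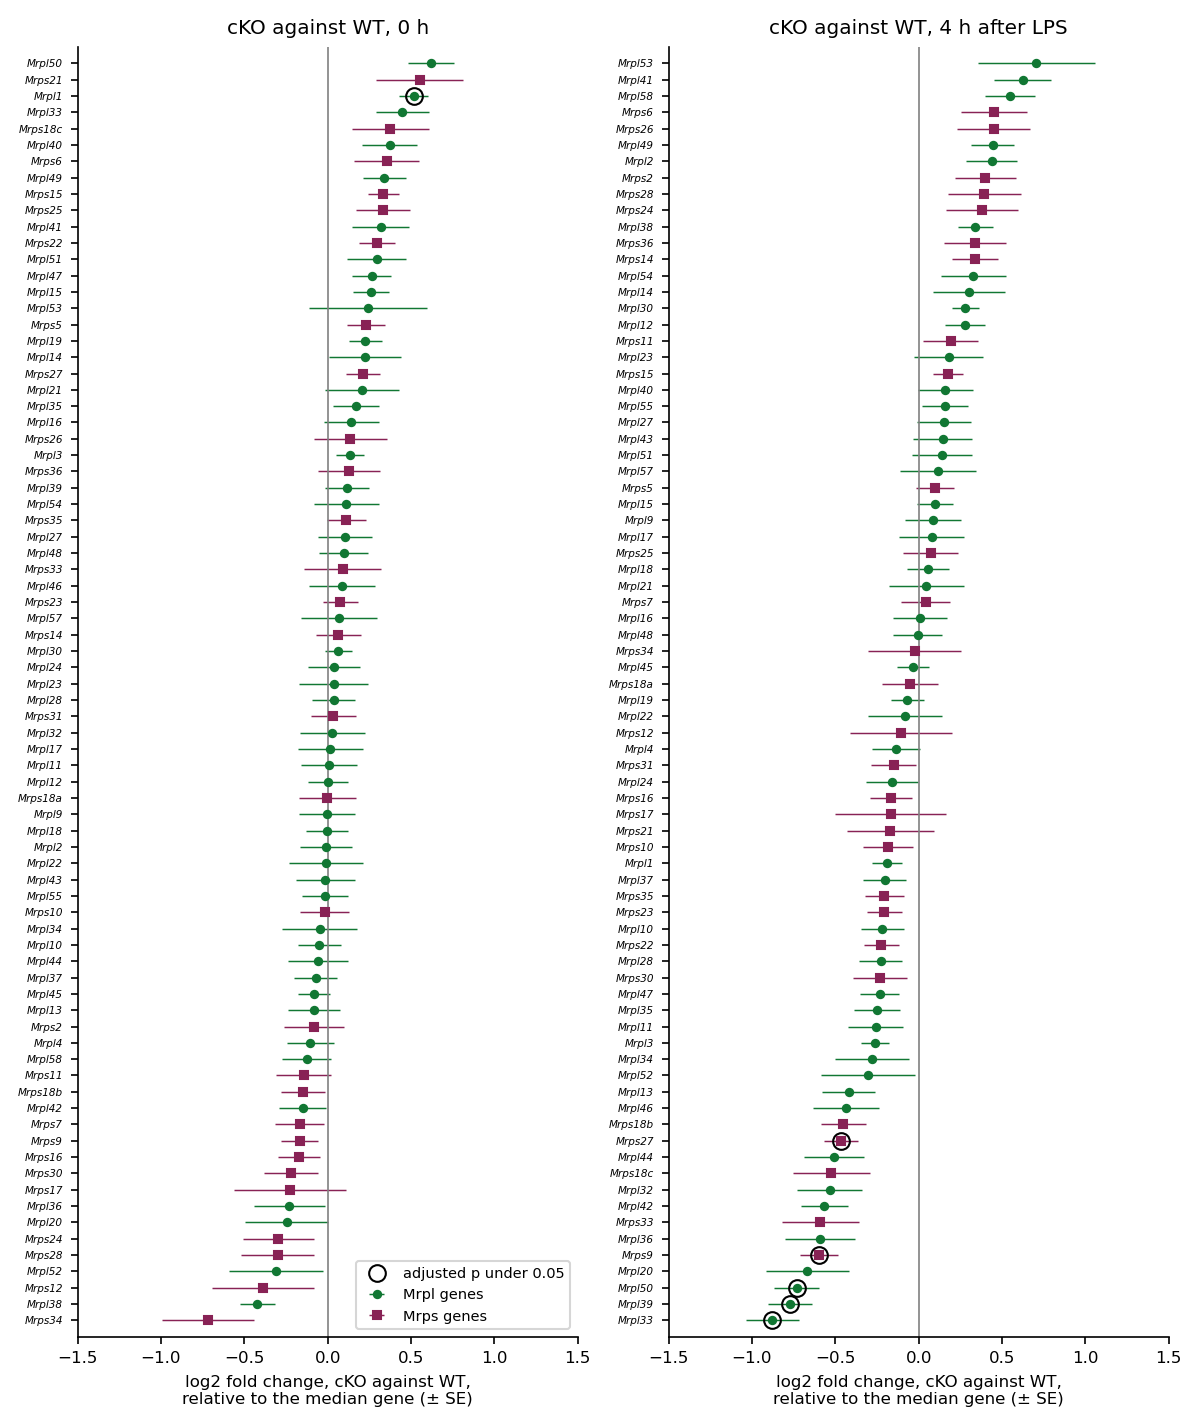
Log2 fold change of Nudt21-cKO against WT for each of the 78 genes, relative to the median gene, with its standard error, at 0 h (left) and 4 h (right), ranked within each time. Circles are Mrpl and squares Mrps genes, and rings mark an adjusted p under 0.05, which 1 gene at 0 h and 5 genes at 4 h reached.

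At 4 h after LPS, 5 mitoribosomal genes had lower coverage relative to the median gene in Nudt21-cKO than in WT BMDMs: Mrpl33, Mrpl39, Mrpl50, Mrps9 and Mrps27. None rose, and 73 were not called by limma with adjustment over all genes, whereas 7.2% of all tested genes rose and 8.71% fell. At an unadjusted p under 0.05, 6 members were higher and 13 lower, against 14.7% and 18.8% of all tested genes. The members had a median log2 fold change of -0.06 and all tested genes one of -0.08, with 35 of 78 members above 0. With the study's rule 1 member was higher (Mrpl41) and 6 were lower, against 9.88% and 10.6% of all tested genes. By the same rule on the deposited scale 17 of the 78 were higher and 0 lower, against 20.7% and 4.39% of all tested genes. Relative to the median gene the share of members called was under the background in both directions by either rule, while on the deposited scale the share called higher by the study's rule was just above it.

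Mrpl33 encodes one of the smallest large subunit proteins, with a counterpart in bacteria. Its scaled coverage at 4 h was 1097 and 1041 in WT and 545 and 620.2 in Nudt21-cKO samples, a log2 fold change of -0.88 ± 0.16 (SE, n = 2 against 2), 1.84-fold lower, with an adjusted p of 0.0265 by limma. At 0 h its levels were 1008 and 775 in WT and 1168 and 1243 in Nudt21-cKO samples, so the Nudt21-cKO samples were above WT then and below it at 4 h. Mrpl39, a mitochondria-specific large subunit protein, was at 423 and 363 in WT and 234 and 225 in Nudt21-cKO samples at 4 h, with a log2 fold change of -0.77 ± 0.13 and an adjusted p of 0.0237 by limma. Its 0 h levels, 415 and 349.6 against 407 and 419, overlapped between the genotypes. Mrpl50, also specific to mitochondria, was at 84.8 and 92.6 in WT and 58.9 and 48.3 in Nudt21-cKO samples, with a log2 fold change of -0.73 ± 0.14 and an adjusted p of 0.0287 by limma.

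Mrps9 and Mrps27 encode small subunit proteins. Mrps9, whose bacterial counterpart reaches towards the peptidyl-tRNA, was at 368 and 358 in WT and 235 and 246 in Nudt21-cKO samples at 4 h, with a log2 fold change of -0.60 ± 0.11 and an adjusted p of 0.0295 by limma. Mrps27, an RNA-binding protein of the pentatricopeptide repeat type, was at 109 and 111 against 74.9 and 84.4, with a log2 fold change of -0.47 ± 0.10 and an adjusted p of 0.0418 by limma. In each of the 5 genes both Nudt21-cKO samples were below both WT samples in scaled coverage, while in deposited coverage Mrps27 overlapped.

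These 5 calls depended on the scaling and on single samples. On the deposited scale, where the median of all tested genes was 0.28, 0 members were lower and 15 higher at 4 h, against 3.38% and 19.6% of all tested genes, and the members' median was 0.30. Their log2 fold changes on that scale stayed below 0, at -0.52 for Mrpl33, -0.41 for Mrpl39, -0.37 for Mrpl50, -0.24 for Mrps9 and -0.11 for Mrps27. The count of lower members was 0 without either Nudt21-cKO sample of 0 h, without WT replicate 1 or either Nudt21-cKO sample of 4 h, and in a fit of the 4 h samples alone, and it was 2 without WT replicate 2 of 4 h.

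The most positive values at 4 h were not called. Mrpl53, a large subunit protein near the stalk, was at 285 and 149 in WT and 317 and 356 in Nudt21-cKO samples, with the WT replicates far apart, and its log2 fold change was 0.71 ± 0.35. Mrpl41 was at 35.9 and 41.3 against 62.1 and 56.7, with a log2 fold change of 0.62 ± 0.17 and an adjusted p of 0.0689 by limma. Mrpl58, which doubles as a rescue factor that frees stalled peptidyl-tRNA, was at 207 and 185 against 267 and 308, with a log2 fold change of 0.55 ± 0.15 and an adjusted p of 0.066 by limma. For Mrpl41 and Mrpl58 both Nudt21-cKO samples were above both WT samples, and on the deposited scale both were among the 15 genes called higher. The exons of Mrpl53 and Mrpl58 overlap antisense transcripts (Ccdc142os and Ict1os), and the library kit did not mark strand. Those of Mrpl53 also overlap Gm42688 on the same strand.

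**Figure D2:**
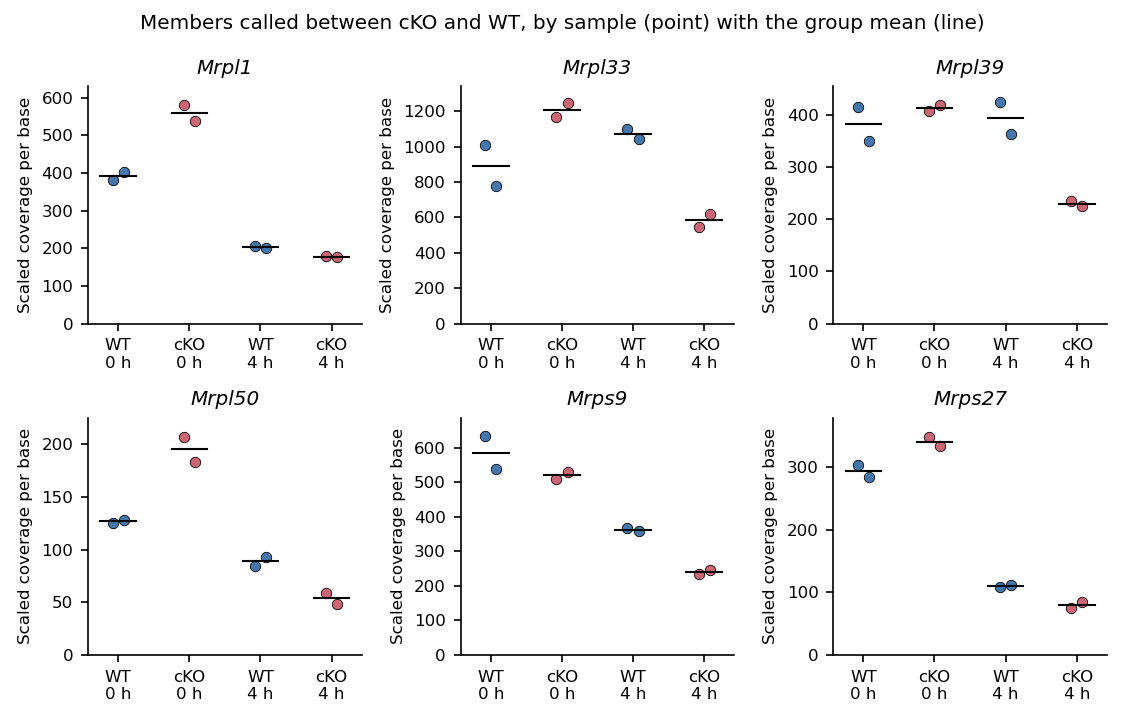
Scaled coverage per base of the 6 genes called between Nudt21-cKO and WT at either time, to be compared within a time, with 1 point per sample and a line at the mean of the 2 samples. Mrpl1 separates upwards in Nudt21-cKO at 0 h, and the other 5 genes separate downwards at 4 h, Mrpl33 from 1097 and 1041 in WT to 545 and 620.2 in Nudt21-cKO.

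Without regard to the test and in scaled coverage, 24 members had both Nudt21-cKO samples above both WT samples at 0 h and 10 had both below. This is 30.8% and 12.8% of the members, against 28.8% and 28.0% of all tested genes. At 4 h the same counts were 20 and 29, or 25.6% and 37.2% of the members, against 25.9% and 32.3% of all tested genes. A set of 11 members was above WT at 0 h and below it at 4 h: Mrpl1, Mrpl3, Mrpl33, Mrpl35, Mrpl47, Mrpl50, Mrps18c, Mrps22, Mrps23, Mrps27 and Mrps35. They were 14.1% of the members, against 6.33% of all tested genes with this pattern. Mrpl38 did the opposite, as did 4.02% of all tested genes, at 405 and 374 in WT and 283 and 298 in Nudt21-cKO samples at 0 h and 114 and 128 against 157 and 149 at 4 h. Another 5 members were above WT at both times and 2 were below it at both, against 11.7% and 13.7% of all tested genes. These counts depended on the scaling. In deposited coverage at 4 h, only Mrpl33, Mrpl50 and Mrps18c of the set of 11 stayed below both WT samples. Mrpl3, Mrpl35, Mrps27 and Mrps35 overlapped WT. Mrpl1, Mrpl47, Mrps22 and Mrps23 lay above both WT samples, with Mrpl1 at 167 and 191 in WT and 206 and 197 in Nudt21-cKO.

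The difference of the genotype effect between 4 h and 0 h was tested directly. Mrpl50 was the 1 member called, and it was lower at 4 h relative to 0 h, while 0 were called in the other direction, against 1.06% and 1.07% of all tested genes. At an unadjusted p under 0.05, 10 members were lower and 2 higher, against 12.6% and 8.97% of all tested genes. Mrpl50 was at 125 and 128 in WT and 207 and 183 in Nudt21-cKO samples at 0 h, with Nudt21-cKO above WT, and at 84.8 and 92.6 against 58.9 and 48.3 at 4 h, with Nudt21-cKO below WT. The difference was -1.35 ± 0.19 on the log2 scale, with an adjusted p of 0.0444 by limma. It lost its call without any 1 of the 8 samples, with the replicate number as a block (adjusted p of 0.169 by limma), with equal total coverage, on the median of genes at 50 or more, with no filter, and on the deposited scale, where its difference was -1.09. The most positive differences were Mrpl38 at 0.76 ± 0.15 with an adjusted p of 0.0797 by limma, Mrps34 at 0.69 ± 0.39 and Mrps28, a small subunit protein, at 0.69 ± 0.31, none of them called.

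After IFNγ/LPS the mitoribosomal genes took a smaller share of the RNA coverage in both genotypes. In WT BMDMs the 78 genes took 0.310% and 0.257% of summed coverage at 0 h and 0.168% and 0.184% at 4 h. In Nudt21-cKO BMDMs they took 0.281% and 0.288% at 0 h and 0.179% and 0.181% at 4 h. All 4 samples at 4 h were below all 4 at 0 h, and at each time the genotypes overlapped. An exact permutation test (two-sided) of 2 samples against 2 has a smallest p of 0.333, so none was run between single groups on these shares. No test of the 4 samples at 4 h against the 4 at 0 h was run either. The Mrpl genes alone took 0.186% ± 0.025 at 0 h and 0.122% ± 0.006 at 4 h (SD, n = 2) in WT, and the Mrps genes 0.0974% ± 0.0131 and 0.0544% ± 0.0048.

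**Figure D3:**
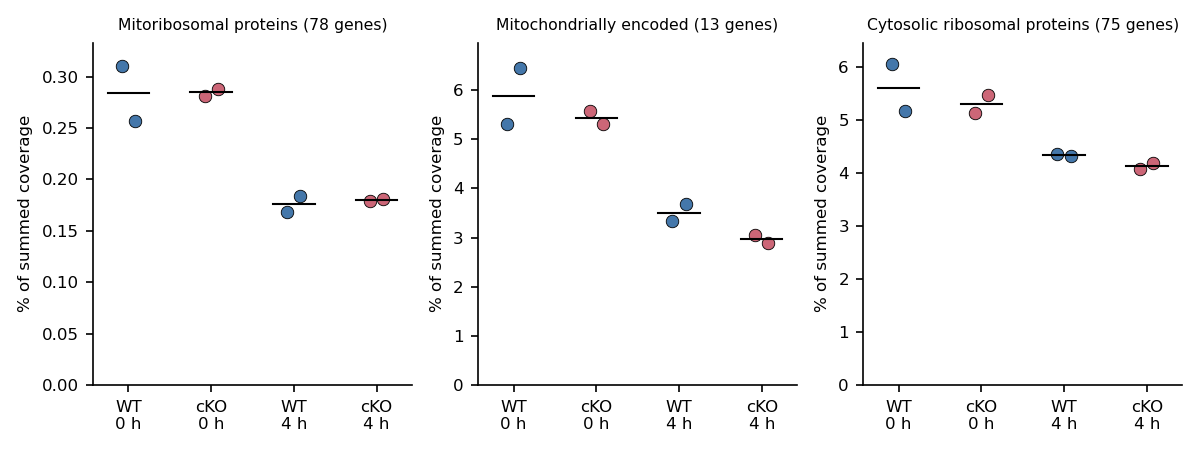
Percent of the summed coverage of each sample taken by the 78 mitoribosomal genes, the 13 proteins encoded by mitochondrial DNA and 75 cytosolic ribosomal protein genes, with 1 point per sample and a line at the mean of 2. All 3 sets are lower at 4 h than at 0 h in both genotypes, the mitoribosomal genes from 0.257 to 0.310% in WT at 0 h to 0.168 and 0.184% at 4 h.

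The direction of single members under stimulation depended on the scale on which they were read, because the median gene had a lower coverage at 4 h. Relative to the median gene, 44 of 78 members rose and 6 fell in WT, with a median log2 fold change of 0.54, against 37.3% and 22.9% of all tested genes (limma, adjusted p under 0.05). In Nudt21-cKO 34 rose and 4 fell, with a median of 0.38, against 35.5% and 23.1%. On the deposited scale 0 rose and 61 fell in WT, with a median of -0.92, against 12.9% and 58.2% of all tested genes. In Nudt21-cKO 2 rose and 56 fell on that scale, with a median of -0.82, against 14.5% and 54.5%. When samples were brought to the median of the genes whose mean coverage was 50 or more, a choice made after seeing the data, 14 rose and 16 fell in WT and 11 rose and 16 fell in Nudt21-cKO, with medians of 0.02 and -0.07. Under that scaling 26.8% of all tested genes rose and 34.4% fell in WT, and 25.4% and 34.2% in Nudt21-cKO, with medians of -0.29 and -0.28. Relative to the median gene, the members' median of 0.54 in WT stood beside 0.23 for all tested genes, a gap that any scaling by 1 factor per sample leaves nearly the same. With quantile normalization, which is not of that kind, the medians were -0.0395 against -0.24 in WT and -0.14 against -0.27 in Nudt21-cKO.

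**Figure D4:**
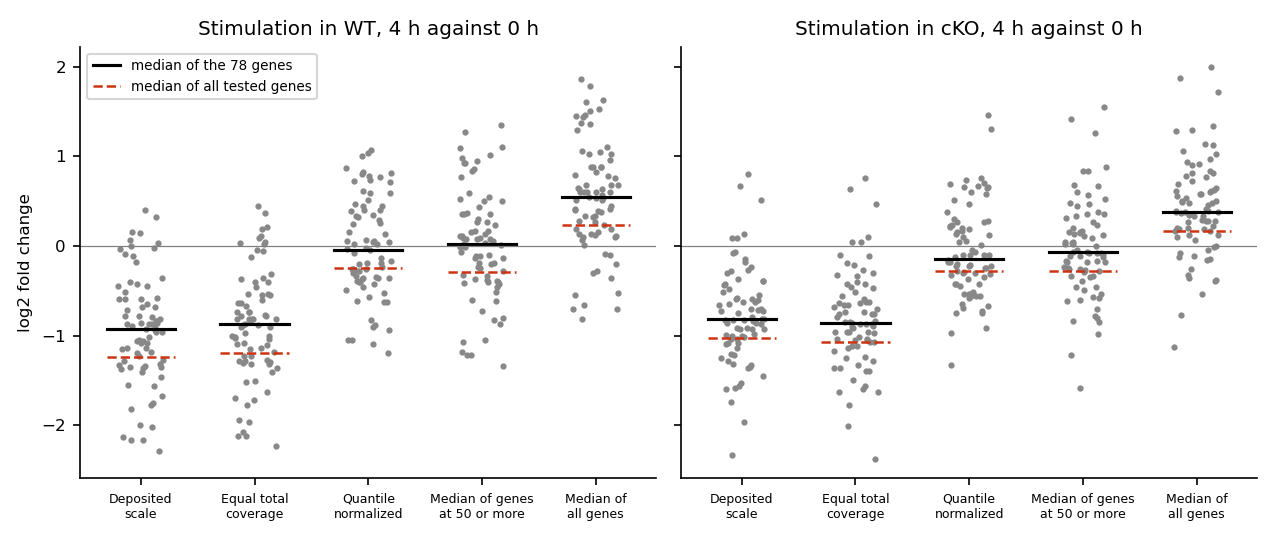
Log2 fold change of stimulation (4 h against 0 h) for the 78 genes in WT (left) and Nudt21-cKO (right) under 5 ways of scaling the samples, with 1 point per gene, a solid line at the members' median and a dashed line at the median of all tested genes. The cloud moves as a whole from a median of -0.92 in WT on the deposited scale to 0.54 relative to the median gene, by a shift common to all genes under every scaling but the quantile one.

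The members kept a wide spread around these medians, which the scaling moves together. Levels in the next sentences are deposited coverage, since scaled coverage is not on a common scale between the times. At the top in WT were Mrpl52, Mrpl54, Mrpl13, Mrpl33 and Mrpl3, all of the large subunit. Mrpl52 went from 2373 and 1757 at 0 h to 3159 and 2289 at 4 h in WT, a log2 fold change of 1.86 ± 0.28 relative to the median gene and 0.40 on the deposited scale, and from 1641 and 1887 to 2615 and 2992 in Nudt21-cKO. Mrpl54 went from 540.5 and 406 to 611 and 557 in WT and from 516 and 566 to 1003 and 881 in Nudt21-cKO, with a log2 fold change of 1.78 ± 0.19 in WT relative to the median gene. These 2 genes were the 2 members that rose on the deposited scale in Nudt21-cKO, by 0.67 and 0.80, with adjusted p of 0.0496 and 0.0105 by limma. Mrpl13 and Mrpl3, with bacterial counterparts, had log2 fold changes of 1.63 ± 0.16 and 1.53 ± 0.08 in WT, with adjusted p of 0.000626 and 0.000102 by limma, and Mrpl33 had 1.61 ± 0.16. Unscaled, these 3 were at 0.16, 0.07 and 0.14 and were not called.

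In Nudt21-cKO the next members after Mrpl54 and Mrpl52 were Mrps28 of the small subunit and Mrpl27 and Mrpl21 of the large subunit. The deposited coverage of Mrps28 went from 189.8 and 225 to 289 and 301, a log2 fold change of 0.51 on that scale and of 1.71 ± 0.22 relative to the median gene. Mrpl27 and Mrpl21 had 1.34 ± 0.16 and 1.29 ± 0.22. Unscaled, the latter pair were at 0.13 and 0.09, and none of the 3 was called on that scale.

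The 6 members that fell in WT and the 4 that fell in Nudt21-cKO relative to the median gene were called lower on the deposited scale as well. Mrps35, a mitochondria-specific small subunit protein, went from a deposited coverage of 404 and 353 to 71.7 and 84.2 in WT and from 423 and 449.6 to 94.1 and 79.4 in Nudt21-cKO. Its log2 fold change was -0.81 ± 0.12 in WT and -1.13 ± 0.12 in Nudt21-cKO relative to the median gene, with adjusted p of 0.00259 and 0.000883 by limma, and -2.28 and -2.33 on the deposited scale. It was the 1 member called lower in both genotypes relative to the median gene, against 17.6% of all tested genes. The others called lower in WT included Mrps26 (-0.70 ± 0.22), Mrpl2 (-0.70 ± 0.15), a protein of the catalytic core, Mrpl41 (-0.66 ± 0.17) and Mrpl58 (-0.55 ± 0.15). Mrpl41 went from 171 and 129 to 29.1 and 39.6 in WT and from 181 and 216 to 71.3 and 63.4 in Nudt21-cKO. In Nudt21-cKO the other 3 that fell were Mrps27 (-0.76 ± 0.10), Mrpl50 (-0.53 ± 0.14) and Mrpl1 (-0.32 ± 0.09).

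Relative to the median gene, 30 of the 78 members rose in both genotypes, against 31.2% of all tested genes. Mrpl1 and Mrpl50 rose in WT and fell in Nudt21-cKO, at 0.38 ± 0.09 and 0.82 ± 0.14 in WT, and Mrpl38 fell in WT and rose in Nudt21-cKO, at -0.35 ± 0.11 and 0.41 ± 0.11. Each of these opposite pairs of calls was found in 0.411% of all tested genes. On the deposited scale these 3 genes had negative values in both genotypes, -1.09 and -1.52 for Mrpl1, -0.65 and -1.73 for Mrpl50 and -1.82 and -0.79 for Mrpl38, so their opposite signs depend on the scale. The count of members that fell in WT was 1 without WT replicate 1 of 0 h. The count that rose in Nudt21-cKO was 16 without either Nudt21-cKO sample of 0 h and 22 and 17 without replicates 3 and 4 of 4 h, and 2 fell without either sample of 0 h or without replicate 4 of 4 h.

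Relative to the median gene, the rest of the mitochondrial translation machinery did not follow a single direction under stimulation, while on the deposited scale nearly all of it fell. The 5 mitoribosome subunits without an Mrp symbol had a median stimulation log2 fold change of 0.56 in WT and 0.49 in Nudt21-cKO relative to the median gene, and 3 of them rose in each genotype, Dap3 (1.31 ± 0.10 in WT), Chchd1 (0.83 ± 0.15) and Aurkaip1 (0.56 ± 0.14). The counts of these lists stand against the 37.3% of all tested genes that rose and 22.9% that fell in WT, and the 35.5% and 23.1% in Nudt21-cKO. Of 17 mitochondrial aminoacyl-tRNA synthetases, which charge mitochondrial tRNAs, 12 fell and 0 rose in WT, with a median of -0.59, and 12 fell and 1 (Sars2) rose in Nudt21-cKO, with a median of -0.78. Of 13 translation factors 6 fell and 2 rose in WT, the 2 being the elongation factors Gfm1 (0.97 ± 0.09) and Tufm (0.62 ± 0.11), and 8 fell and the same 2 rose in Nudt21-cKO. Of 25 genes for mitoribosome assembly and rRNA modification, 8 fell and 4 rose in WT, and 8 fell and 2 rose in Nudt21-cKO. Of 8 genes of mitochondrial transcription and RNA stability, Polrmt, the mitochondrial RNA polymerase, fell (-1.44 ± 0.10 in WT) and Slirp, which stabilises mitochondrial mRNA, rose (2.14 ± 0.20), among 3 that fell and 2 that rose. On the deposited scale 0 rose and 16 synthetases, 13 translation factors, 23 assembly genes and 4 of the other subunits fell in WT, and 0 rose and 15, 13, 23 and 4 fell in Nudt21-cKO. Of all tested genes 58.2% fell in WT and 54.5% in Nudt21-cKO on that scale. Of the 8 transcription and RNA stability genes, 1 rose and 6 fell in each genotype on it.

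Between the genotypes these lists held few calls. At 0 h none of the 81 genes of these lists and of the mitochondrially encoded proteins passed the test by limma, and 6 were higher and 4 lower at an unadjusted p under 0.05, against 11.2% and 10.7% of all tested genes. At 4 h 4 were higher and 4 lower relative to the median gene, against 7.2% and 8.71% of all tested genes, and 13 were higher and 1 (Ybey) lower on the deposited scale, against 19.6% and 3.38%. Mettl15, a methyltransferase of the small subunit rRNA, was higher in Nudt21-cKO, with a scaled coverage of 1.49 and 1.47 in WT and 5.39 and 4.31 in Nudt21-cKO samples, with a log2 fold change of 1.62 ± 0.20. Its effect also differed between the times, by 2.07 ± 0.29, with an adjusted p of 0.0426 by limma, its levels at 0 h being 33.1 and 26.9 against 25.2 and 18.8. Ybey, an rRNA-processing factor, was lower, with means of 13.3 in WT and 3.43 in Nudt21-cKO samples and no overlap, with a log2 fold change of -1.95 ± 0.38. Both genes had low coverage at 4 h. Mpv17l2 (0.62 ± 0.13), Sars2 (0.56 ± 0.13) and Polrmt (0.57 ± 0.10) were higher, and Tefm, the mitochondrial transcription elongation factor (-0.54 ± 0.10), was lower, with -0.18 and no call on the deposited scale.

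The proteins that mitoribosomes make are encoded by 13 mitochondrial genes. They took 5.31% and 6.46% of coverage in WT and 5.57% and 5.30% in Nudt21-cKO samples at 0 h, and 3.34% and 3.68% against 3.06% and 2.89% at 4 h. At 4 h all 13 had a negative log2 fold change in Nudt21-cKO against WT relative to the median gene, with a median of -0.36. Only mt-Atp8 (-0.50 ± 0.11) and mt-Nd3 (-0.49 ± 0.10) passed the test, where 8.71% of all tested genes were called lower. The median of the 13 on the deposited scale was 0.00, with 0 called in either direction, against 19.6% of all tested genes higher and 3.38% lower. Most of the 13 are cut from shared transcripts, so they are not independent of each other. With stimulation, 10 of them rose and 0 fell in WT and 4 rose and 0 fell in Nudt21-cKO relative to the median gene, where 37.3% and 35.5% of all tested genes rose. Unscaled, all 13 fell in both genotypes, as did 58.2% and 54.5% of all tested genes.

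Cytosolic ribosomal protein genes were compared as the most like set. Of 75, 0 were called at 0 h by limma (0 higher and 1 lower at an unadjusted p under 0.05) and 3 were lower in Nudt21-cKO at 4 h: Rps25 (-0.80 ± 0.17), Rps24 (-0.64 ± 0.13) and Rps4x (-0.51 ± 0.11), against 8.71% of all tested genes. On the deposited scale 6 were higher and 0 lower at 4 h, against 19.6% and 3.38% of all tested genes, and with equal total coverage 0 were higher and 1 lower. In WT 72 of the 75 rose and 0 fell with stimulation relative to the median gene, with a median of 1.03, and in Nudt21-cKO 67 rose and 0 fell, with a median of 0.87, where 37.3% and 35.5% of all tested genes rose. With stimulation 0 rose and 38 fell in WT on the deposited scale, with a median of -0.44, where the mitoribosomal genes had -0.92, and 1 rose and 26 fell in Nudt21-cKO, with a median of -0.33, where they had -0.82. On that scale 58.2% of all tested genes fell in WT and 54.5% in Nudt21-cKO. Their share of coverage went from 6.05% and 5.16% in WT at 0 h to 4.35% and 4.32% at 4 h. No test of the difference between the sets was run.

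Since Nudt21 acts through UGUA near 3' ends, the 3'UTRs of the members were described from GENCODE M21 on GRCm38. The 78 members had a median 3'UTR of 327 bases, against 934 bases over the tested coding genes, and a median of 3 UGUA motifs against 5. In 17 members (21.8%) the 3'UTR held no UGUA, against 14.1% of the tested coding genes, and the density over all members was 5.64 per kb against 5.62. Of the 6 genes called between the genotypes, Mrpl1 held 15 UGUA in 2372 bases, Mrpl39 held 9 in 758, Mrpl50 held 7 in 1594, Mrps9 held 1 in 186, Mrps27 held 1 in 584, and Mrpl33 held none in 218 bases. The median log2 fold change at 4 h was -0.13 for the 17 members without UGUA, -0.05 for the 33 with 1 to 4 and -0.05 for the 28 with 5 or more. At 0 h it was 0.04, -0.00 and 0.10 in the same order. Use of one or another 3' end was not measured by the per-gene coverage. Coverage is a mean over the bases of a gene, so a shorter 3'UTR could lower it without fewer mRNA molecules. The paper reports 3'UTR shortening of many genes in these cells, and its part in the members' values was not tested.

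The members lie on 17 chromosomes, with 11 of them on chromosome 11. Mrpl1 lies at chr5:96209493-96266727 on the + strand, Mrpl33 at chr5:31596935-31664384 (+), Mrpl39 at chr16:84717576-84735742 (-), Mrpl50 at chr4:49512596-49521093 (-), Mrps9 at chr1:42851233-42905683 (+) and Mrps27 at chr13:99344786-99415562 (+), all as GENCODE M21 gene models on GRCm38. The exons of 33 members overlap those of another gene, 8 on the same and 28 on the opposite strand, and because the library kit did not mark strand these values are less certain. Of the 6 called genes, Mrpl33 overlaps Gm43809 on the same strand and Mrps27 overlaps 6430562O15Rik on the opposite strand, while the other 4 overlap none. Mrpl23, Mrpl48 and Mrps36 have annotated pseudogenes, with which they could share reads.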

How the data were processed

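RNA-seq coverage of 8 BMDM samples, 2 in each of 4 groups, was analysed. Per the study's methods, the authors aligned reads with HISAT2 2.2.1 to mm10/GRCm38, quantified RefSeq genes with StringTie 2.1.7 and compared groups by a fold change above 1.5 and p under 0.05, and the versions are those of the submitters' processing notes. The deposited values are a coverage signal per gene with no scaling between samples, in 1 table per time. Their unit is not named in the headers and was read from the values. Columns of the authors' own fold changes and p-values were not used.

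Genes were kept at a mean coverage of at least 0.5 over the 8 samples. Log2(coverage + 0.1) was brought to the same median in each sample and fitted in limma 3.58.1 (R 4.3.3) with 4 group means over all 8 samples and empirical Bayes moderation. A call is a Benjamini-Hochberg adjusted p under 0.05 over all 16284 genes, two-sided. Printed levels are coverage times a factor that gives the samples of 1 time the same median. The fit was tested on simulated data. Depth is given by summed coverage, 14950347 to 17954882 per sample, from which no counting error can be computed. Alternatives were other scalings, pseudocounts, filters, an intensity trend, a fit of the 4 samples compared, a replicate block and leaving out each sample. Named genes were those called with the largest changes in each comparison (up to 5 in each direction, or the 3 largest where none was called), the 3 highest and 3 lowest, and members with known roles, and for other lists up to 3 called in each direction. The members and lists were chosen with earlier results of these data known. 3'UTRs and overlaps came from GENCODE M21 and promoters from RefSeq. No member was left out.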

Additional observations from a re-analysis of the deposited data

Results flagged for a closer look

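Mrpl50 stood out because its genotype effect differed between the 2 times by a test of the difference itself. The difference (4 h minus 0 h) was -1.35 on the log2 scale, with an adjusted p of 0.0444 by limma. Nudt21-cKO samples were above WT in 2 of 2 samples at 0 h and below WT in 2 of 2 at 4 h. The call was lost without any 1 of the 8 samples, on the deposited scale, with equal total coverage, on the median of genes at 50 or more, with no filter and with the replicate number as a block, and the adjusted p ranged from 0.018 to 0.169 over the alternatives by limma.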

How the results depend on the processing

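The 2 samples per group, values without read counts and a shift of the median gene between the times limit these results. Counts below are members higher, then lower, by limma at an adjusted p under 0.05. For Nudt21-cKO against WT at 0 h (1 and 0 reported), 0 were higher with equal total coverage, no filter or the 4 samples alone, 2 with quantile normalization, and 3 were higher and 1 lower with an intensity trend. For 4 h (0 and 5 reported), the counts were 15 and 0 on the deposited scale (median 0.30), 1 and 1 with equal total coverage (median 0.0896), 1 higher on the median of genes at 50 or more, 4 and 9 with an intensity trend, and 3, 3 and 0 were lower with quantile normalization, no filter and the 4 samples alone. For stimulation in WT (44 and 6), they were 0 and 61 on the deposited scale (median -0.92), 0 and 60 with equal total coverage (-0.87), 17 and 19 with quantile normalization (-0.0395), 14 and 16 on the median of genes at 50 or more (0.0247), and 28 and 2 with the 4 samples alone. For stimulation in Nudt21-cKO (34 and 4), they were 2 and 56 (-0.82), 2 and 59 (-0.86), 11 and 16 (-0.14) and 11 and 16 (-0.0711) under the same first 4 alternatives. For the difference between the times (0 and 1), 0 were lower on the deposited scale (median 0.13), with equal total coverage (0.045), on the median of genes at 50 or more and with no filter, and 1 and 5 were called with an intensity trend. The cause was not tested beyond the scaling itself.

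With the replicate number as a block, 3 members fell with stimulation in WT, and 0 were called lower for the difference between the times. The block changed no other count by over 1.5 times. Same-numbered samples deviated together only weakly (correlation 0.02 in WT and 0.02 in Nudt21-cKO over all genes), so the numbers are not shown to pair the samples.

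Leaving out each sample in turn gave 0 higher and 0 lower at 0 h (median -0.0693 to 0.16), 0 to 1 higher and 0 to 6 lower at 4 h (median -0.12 to -0.00), 32 to 43 higher and 1 to 5 lower with stimulation in WT (median 0.46 to 0.63), 16 to 34 higher and 2 to 5 lower in Nudt21-cKO (median 0.35 to 0.47), and 0 higher and 0 to 1 lower for the difference (median -0.18 to 0.0115). Of the 44 members called higher with stimulation in WT relative to the median gene, 27 were called lower on the deposited scale, as were 18 of the 34 in Nudt21-cKO (61.4% and 52.9%, against 32.7% and 24.0% of all genes called higher). The shared shift between the scales sets these turns. For the genes that the naming rule chose in the 5 comparisons, none reversed its direction among called values, and of the values under alternatives other than leaving a sample out, 272 kept their side of the threshold, 54 lost it and 8 gained it, while with a sample left out 211 kept it and 69 lost it.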
